A study of Mus musculus with 31 samples.

Results

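The comparison set the 4 arrays labelled as cultured in interleukin 2 (IL-2) against 7 of the 9 arrays titled native, 11 of the 31 arrays of a study of regulatory T cells (Treg) in mice. The arrays were taken by title, under a rule set with earlier results of these data known. The rule leaves out the other 2 arrays titled native, which stand for unactivated Foxp3deltaEGFP+ CD4 cells of the mutant mice and are called native Foxp3delta below. The 2 arrays labelled IL-2 induced Treg stand for Foxp3-EGFP- CD4 T cells of Foxp3/EGFP bicistronic mice. These cells received antibodies to CD3 and CD28 with TGF-beta for 3 days, were sorted for the Foxp3 reporter, and were then kept for 1 week in IL-2 at 100 units per ml. The 2 arrays labelled IL-2 induced Foxp3delta stand for cells of Foxp3deltaEGFP mutant mice taken through the same steps and sorted for the mutant reporter. On the native side, as the term is used below, 4 arrays carry the label natural Treg (reporter-positive CD4 cells) and 3 the label conventional T (reporter-negative CD4 cells). Both were sorted from spleen and lymph nodes of Foxp3/EGFP bicistronic mice without activation or culture. All 11 samples carry a Foxp3-linked EGFP allele, and the IL-2 side pools an intact with a mutant Foxp3 allele. Cells of both sides were sorted on the reporter. Induction and the week in IL-2 separate the sides together and cannot be told apart. The labels number the samples and do not state separate cultures or animals, so the spread behind each p-value is that between these samples and may be technical only.

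IL-2 is the growth and survival cytokine of activated T cells. Its high-affinity receptor includes CD25, encoded by Il2ra, and signals through STAT5 to raise genes such as Cish, Socs2, Bcl2 and Pim1. Treg, which are defined by the transcription factor Foxp3, depend on IL-2, and TGF-beta with T cell receptor stimulation induces Foxp3 in conventional CD4 cells.

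The measured RNA went against the labelled cell type, so the groups are named below as labels. Values are quantile normalised probe set intensities on a linear scale. Foxp3 read 12.95 to 13.3 on the IL-2 arrays and 11.5 to 16.9 on the native arrays, Il2ra 19.2 to 20.3 and 17.6 to 20.2, and Cd4 17.5 to 18.3 and 17.4 to 18.4. For comparison, the median over 27 bacterial control probe sets was 8.22, their 95th percentile 11.1, and the median of all probe sets 39.8. The T cell receptor component Cd3e read 28.0 to 33.7 on the IL-2 arrays and 23.7 to 27.8 on the native arrays, still below the median probe set. Its log2 difference was 0.16, the 2 sides did not overlap, and the exact two-sided permutation p was 0.00606 (0.0242 after Benjamini-Hochberg adjustment over 4 genes). The smallest p that 4 against 7 arrays allow is 0.00303. The T cell markers Cd3d, Cd3g, Cd4, Cd2 and Cd28 had log2 differences of 0.02, -0.007, -0.006, -0.02 and -0.0006. Together with Cd3e, these 6 T cell markers summed to 97.0 to 104 on the IL-2 arrays and 91.8 to 99.5 on the native arrays. The sums overlapped, and 0 of the 6 passed the filter on dim genes. In contrast, 3 oligodendrocyte markers summed to 36848 to 38910 and 35964 to 39251, 3 astrocyte markers to 24000.2 to 29579 and 21651 to 27341, and 3 neuron markers to 22900.1 to 24772 and 23001 to 27321. These sums overlapped between the sides. The mutant cells came from males per the labels, yet Xist, the RNA that silences an X chromosome in females, read 2841 and 3043 on the IL-2 induced Foxp3delta arrays, against 2259 to 3299 on the native arrays. On those 2 arrays 3 genes of the Y chromosome (Uty, Kdm5d and Eif2s3y) did not exceed 9.50.

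Array-wide, the sides lay close together. Correlations over tested genes ran from 0.9929 to 0.9951 within the IL-2 labels, from 0.9932 to 0.9951 within the native labels and from 0.9916 to 0.9943 between them. The first principal component held 23.0% of the variance. On it the IL-2 induced Treg arrays scored 11.3 and 10.8 and IL-2 induced Foxp3delta 2 scored 8.93, while IL-2 induced Foxp3delta 1 scored 0.47 and the native arrays -6.11 to -2.23. The nearest array lay on the same side for 10 of 11 arrays, and the exception was IL-2 induced Foxp3delta 1, whose nearest array was conventional T 1. The deposited median intensity averaged 39.7 ± 2.30 (SD, n = 4) on the IL-2 arrays and 44.2 ± 3.18 (n = 7) on the native arrays (exact permutation p = 0.0424, adjusted over 5 technical measures 0.167). Its part in the differences below was not tested.

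Of 11625 genes tested, 188 differed between the IL-2 culture and native labels at an adjusted p under 0.05, which is 1.62% of those tested. 83 were higher (0.714%) and 105 lower (0.903%) on the IL-2 arrays (limma with Benjamini-Hochberg adjustment). The sizes were small: the median called difference was 0.27 on the log2(intensity + 16) scale, 19 called genes exceeded 0.5 and 1 exceeded 1. At an unadjusted p under 0.05 there were 2204 genes, or 19%. The arrays of the sides did not overlap for 478 genes (4.11% of those tested), and 166 of the 188 called genes were among them. With values as deposited, where the median gene lay 0.13 lower on the IL-2 arrays, 19 genes were called higher and 1668 lower, and with arrays scaled to a common median 74 were higher and 40 lower.

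With the native Foxp3delta arrays added to the native side, an alternative chosen after seeing the data, 76 genes were called by limma, 34 higher and 42 lower, and 74 of them were among the 188. The sides then did not overlap for 229 genes (1.97% of those tested) and for 93 of the 188. Native Foxp3delta 1 and 2 had deposited medians of 52.7 and 31.7 and log2 ratios of the spiked hybridisation controls cre and bioB of 5.53 and 6.58, where the 11 arrays compared spanned 37.0 to 47.7 and 5.30 to 5.54. The part of these values in the change of the count was not tested.

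**Figure D1:**
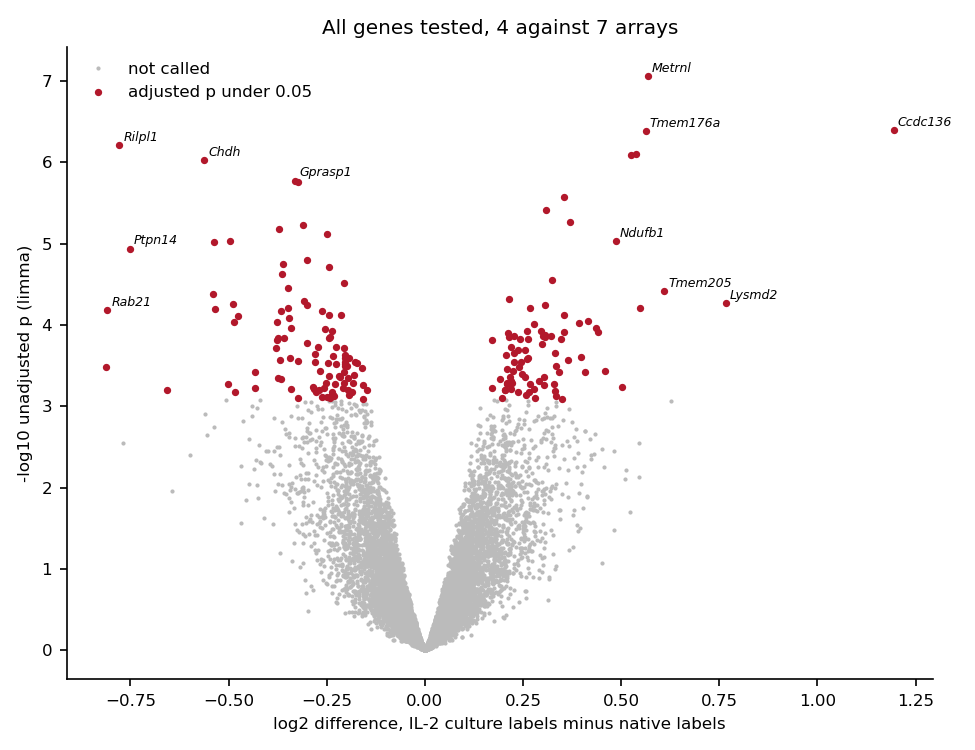
Each point is 1 of the 11625 tested genes, with the log2 difference (4 IL-2 culture arrays minus 7 native arrays) across and -log10 of the unadjusted limma p upwards. The 188 called genes are red, and Ccdc136 is the 1 called gene with a difference over 1.

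The count rested on single arrays. Without IL-2 induced Foxp3delta 1, 642 genes were called. It fell to 43 without IL-2 induced Treg 1, 38 without IL-2 induced Treg 2 and 46 without IL-2 induced Foxp3delta 2. Leaving out native arrays gave 116 without natural Treg 1, 116 without natural Treg 3, 91 without natural Treg 4, 113 without conventional T 1 and 104 without conventional T 3. On a scale where the native mean is 0 and the mean of the other IL-2 arrays is 1, IL-2 induced Foxp3delta 1 had a median position of 0.74 over the called genes, and the other 3 IL-2 arrays lay at 1.05 to 1.16. Against the natural Treg labels alone 29 genes were called, and against the conventional T labels alone 4.

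The largest rise was that of Ccdc136, a coiled-coil protein known from the sperm acrosome. It read 445 and 345 on IL-2 induced Treg 1 and 2, 367 and 368 on IL-2 induced Foxp3delta 1 and 2, and 114 to 198 (median 157) on the 7 native arrays. All 4 IL-2 arrays lay above every native array, and genes named by size were picked only among those without overlap. The difference was 2.29-fold on the scale with the added constant of 16, a log2 difference of 1.19 (SE 0.12, adjusted p = 0.00156). Ccdc136 kept its call in all 26 alternative settings and leave-outs that were run for it. The secreted factor Metrnl (meteorin-like) read 204 and 201 on IL-2 induced Treg 1 and 2, 185 and 199 on IL-2 induced Foxp3delta 1 and 2, and 114 to 143 (median 128) on the 7 native arrays. Its log2 difference was 0.57 (SE 0.05, adjusted p = 0.000997), with the least spread of the larger rises, and it was called in all 25 alternatives that could be run for it.

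Lysmd2, Tmem205 and Kcnip2 were higher as well. Lysmd2, which carries a LysM domain, read 1655 and 1520.3 on IL-2 induced Treg 1 and 2, 1396 and 1047 on IL-2 induced Foxp3delta 1 and 2, and 669 to 999 (median 772) on the 7 native arrays. The IL-2 induced Treg arrays were highest and IL-2 induced Foxp3delta 2 was just above the native range, at a log2 difference of 0.77 (SE 0.13, adjusted p = 0.0192). Tmem205, a membrane protein studied in cisplatin resistance, read 696 and 978 on IL-2 induced Treg 1 and 2, 945 and 945 on IL-2 induced Foxp3delta 1 and 2, and 495 to 673 (median 559) on the 7 native arrays. IL-2 induced Treg 1 stood apart from the other 3 IL-2 arrays and close to the native range, and the log2 difference over the 4 was 0.61 (SE 0.10, adjusted p = 0.0165). Kcnip2, which binds Kv4 potassium channels and sets their surface level, read 254 to 322 on the 4 IL-2 arrays and 181 to 241 (median 206) on the 7 native arrays, a log2 difference of 0.44 (SE 0.08, adjusted p = 0.0236).

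Tmem176a and Tmem176b, neighbouring genes for related membrane proteins of immune and other cells, differed in opposite directions from the 7 native arrays. Tmem176a read 636 and 621 on IL-2 induced Treg 1 and 2, 579.7 and 594 on IL-2 induced Foxp3delta 1 and 2, and 365 to 440.4 (median 418) on the 7 native arrays, and Tmem176b read 1065 and 1130.4 on IL-2 induced Treg 1 and 2, 1111 and 1159 on IL-2 induced Foxp3delta 1 and 2, and 1279 to 1522 (median 1313) on the 7 native arrays. The sides did not overlap for either gene. The native Foxp3delta arrays, at 559 and 635 for Tmem176a and 1053 and 1002 for Tmem176b, lay outside the range of the 7 native arrays for both genes, on the side of the IL-2 arrays. The log2 difference was 0.56 (SE 0.06, adjusted p = 0.00156) for Tmem176a and -0.28 (SE 0.05, adjusted p = 0.0305) for Tmem176b, which was named after its values were seen. With the native Foxp3delta arrays on the native side Tmem176a was not called (0.44, adjusted p = 0.102 by limma). On a further Tmem176a probe set the IL-2 arrays again lay above all native arrays (0.53), and a dimmer one differed by 0.10 with overlap. Their 300-base promoter windows, from 250 bases before to 50 after each start, are shown because the 2 genes start back to back and share part of both windows. The sequences are from RefSeq on GRCm38.p6, chr6:48841233-48841532 on the plus strand and chr6:48841088-48841387 on the minus strand, and capitals mark the 155 shared bases, which read as reverse complements of each other.
Tmem176a: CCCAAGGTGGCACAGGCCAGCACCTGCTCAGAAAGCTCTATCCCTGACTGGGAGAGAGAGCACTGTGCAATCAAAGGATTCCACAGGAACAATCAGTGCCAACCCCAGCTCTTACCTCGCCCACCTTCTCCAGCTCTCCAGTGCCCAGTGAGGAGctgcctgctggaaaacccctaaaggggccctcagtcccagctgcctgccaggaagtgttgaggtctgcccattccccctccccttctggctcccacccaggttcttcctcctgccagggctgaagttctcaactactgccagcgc
Tmem176b: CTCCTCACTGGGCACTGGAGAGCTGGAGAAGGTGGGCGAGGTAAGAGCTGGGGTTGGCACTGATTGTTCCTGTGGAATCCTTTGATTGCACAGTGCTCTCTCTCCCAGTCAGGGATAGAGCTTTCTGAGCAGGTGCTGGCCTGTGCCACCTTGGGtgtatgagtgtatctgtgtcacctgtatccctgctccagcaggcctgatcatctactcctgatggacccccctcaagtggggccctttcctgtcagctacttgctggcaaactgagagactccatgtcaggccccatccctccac
The capitals thus lie at the upstream end of the Tmem176a window and, reversed, at the upstream end of the Tmem176b window. Among the 188 called genes 5 pairs were neighbours on a chromosome, 3 changed in the same direction and 2 in opposite directions. One same-direction pair was Chdh with Il17rb, a cytokine receptor chain, which was named after its values were seen. Il17rb read 32.1 to 40.8 on the 4 IL-2 arrays and 37.1 to 56.1 (median 49.7) on the 7 native arrays, the sides overlapping. On the IL-2 side only IL-2 induced Foxp3delta 1, at 40.8, exceeded the filter level of 39.8. The gene thus entered the test through the native arrays, and no difference is given for it.

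Drc3, Dctn6 and Ssh2, 3 genes of the cytoskeleton and its motors, were also higher. Drc3, a subunit of the regulatory complex of ciliary dynein, read 74.2 to 94.6 on the 4 IL-2 arrays and 37.3 to 64.6 (median 51.8) on the 7 native arrays, a log2 difference of 0.55 (SE 0.09, adjusted p = 0.0192). Dctn6, a subunit of the dynein activator dynactin, read 1063 to 1358 on the 4 IL-2 arrays and 798 to 1048 (median 903) on the 7 native arrays, a difference of 0.44 (SE 0.08, adjusted p = 0.0236). Ssh2, a phosphatase that activates the actin-severing protein cofilin, read 334 to 413 on the 4 IL-2 arrays and 243 to 271 (median 257) on the 7 native arrays, a difference of 0.53 (SE 0.06, adjusted p = 0.00156). For each of the 3 the lowest IL-2 array lay above the highest native array, as the rule for naming required, narrowly so for Dctn6 (1063 against 1048).

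The remaining named rises belonged to a chaperone, a respiratory subunit and a chromatin reader. Dnajc12, a co-chaperone of the aromatic amino acid hydroxylases, read 597 to 743 on the 4 IL-2 arrays and 438 to 495 (median 439) on the 7 native arrays, a log2 difference of 0.54 (SE 0.06, adjusted p = 0.00156). Ndufb1, an accessory subunit of respiratory complex I, read 174 to 184 on the 4 IL-2 arrays and 104 to 139 (median 126) on the 7 native arrays, a difference of 0.49 (SE 0.07, adjusted p = 0.00613). Phf20l1, which binds methylated lysine, read 226 and 228 on IL-2 induced Treg 1 and 2, 176 and 236 on IL-2 induced Foxp3delta 1 and 2, and 142 to 173 (median 158) on the 7 native arrays. IL-2 induced Foxp3delta 1 lay just above the native range of Phf20l1 and the other 3 well above it, for a difference of 0.42 (SE 0.07, adjusted p = 0.0215).

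**Figure D2:**
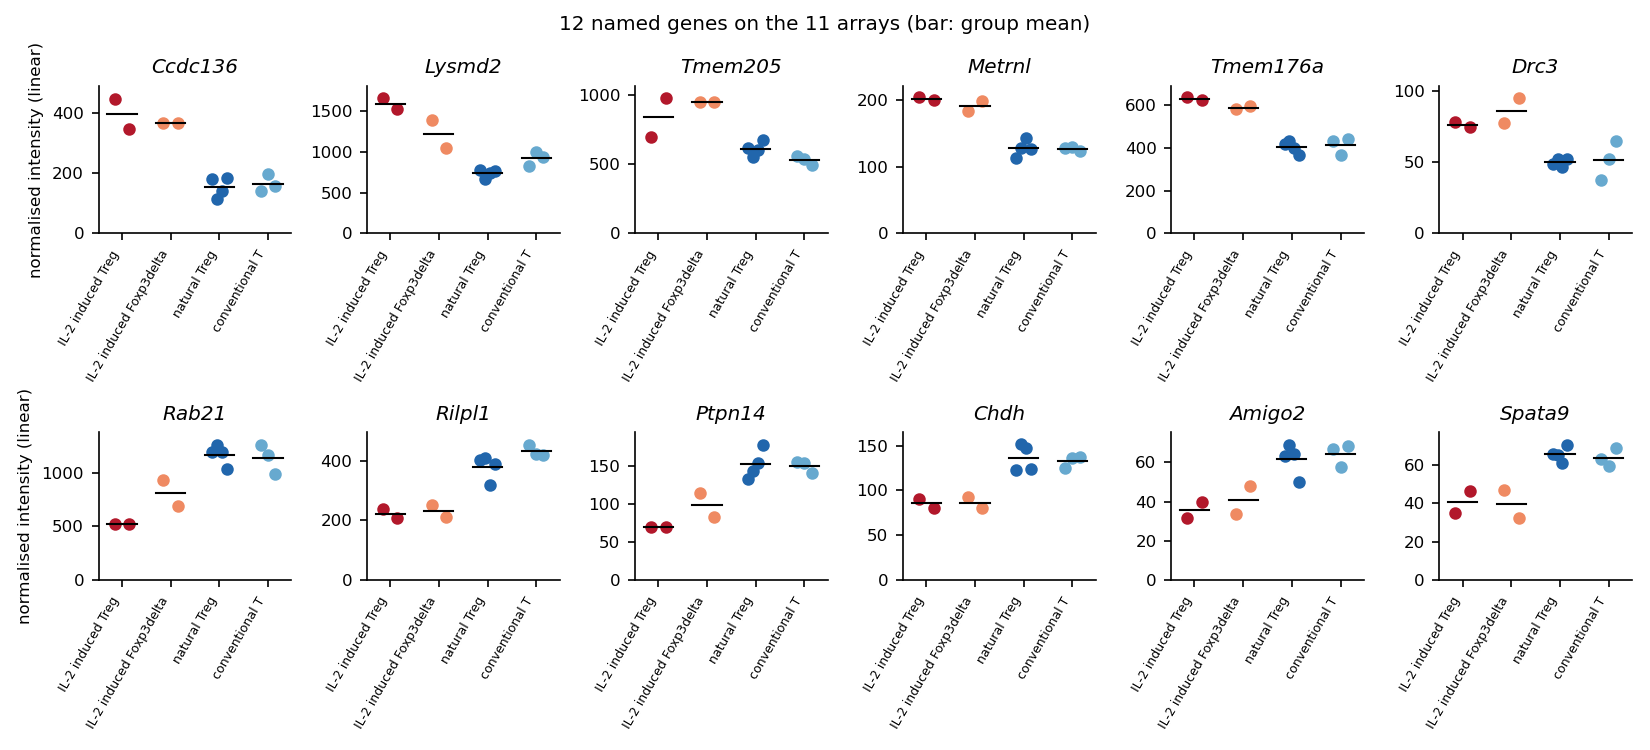
Normalised intensity (linear, from 0) of 6 genes that were higher (upper row) and 6 that were lower (lower row) on the IL-2 arrays. Points are single arrays in the 4 label groups and bars are group means. In each panel the 4 IL-2 points (red and orange) lie apart from the 7 native points (blue), which was a condition for naming these genes.

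Rab21, Rilpl1 and Ptpn14 had the largest falls of the 26 called genes named here. Rab21, a small GTPase of early endosomes, read 526 and 523 on IL-2 induced Treg 1 and 2, 933 and 692 on IL-2 induced Foxp3delta 1 and 2, and 986 to 1260.0 (median 1191) on the 7 native arrays. The IL-2 induced Treg arrays were lowest and IL-2 induced Foxp3delta 1 came close to the native range, for a log2 difference of -0.81 (SE 0.14, adjusted p = 0.0192). Rilpl1, an effector of Rab proteins at the centrosome, read 237 and 208 on IL-2 induced Treg 1 and 2, 252 and 212 on IL-2 induced Foxp3delta 1 and 2, and 317 to 454 (median 409) on the 7 native arrays, a difference of -0.78 (SE 0.08, adjusted p = 0.00156). The tyrosine phosphatase Ptpn14, a brake on the YAP coactivator, read 70.3 and 70.05 on IL-2 induced Treg 1 and 2, 114 and 83.3 on IL-2 induced Foxp3delta 1 and 2, and 133 to 178 (median 155) on the 7 native arrays. The order of the IL-2 arrays was like that of Rab21, and the difference was -0.75 (SE 0.11, adjusted p = 0.007).

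Doc2a, Rasal1, Plch2 and Gprasp1, which act in vesicle release or signalling, also fell. Doc2a, a calcium sensor of vesicle release in neurons, read 161 to 234 on the 4 IL-2 arrays and 249 to 305 (median 275) on the 7 native arrays, a log2 difference of -0.53 (SE 0.09, adjusted p = 0.0192). Rasal1, which switches off Ras, read 51.8 to 61.8 on the 4 IL-2 arrays and 70.7 to 106 (median 91.2) on the 7 native arrays (-0.49, adjusted p = 0.0192 by limma). Plch2, a phospholipase C of the eta type, read 119.7 to 154 on the 4 IL-2 arrays and 162 to 208 (median 178) on the 7 native arrays (-0.38, adjusted p = 0.0236 by limma). Gprasp1, a sorting protein for internalised G protein-coupled receptors, was the brightest named gene. It read 4223 and 4066 on IL-2 induced Treg 1 and 2, 3687 and 3902 on IL-2 induced Foxp3delta 1 and 2, and 4912 to 5066 (median 4998) on the 7 native arrays, a small difference with little spread, -0.33 (SE 0.04, adjusted p = 0.00222).

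The enzymes Chdh, Osgepl1 and Pm20d1 were lower. Chdh, the mitochondrial choline dehydrogenase, read 90.2 and 80.8 on IL-2 induced Treg 1 and 2, 92.2 and 80.5 on IL-2 induced Foxp3delta 1 and 2, and 122 to 152 (median 136) on the 7 native arrays. The highest IL-2 array stayed below the lowest native one, and the log2 difference was -0.56 (SE 0.06, adjusted p = 0.00156). Osgepl1, which modifies mitochondrial transfer RNA, read 228 to 319.6 on the 4 IL-2 arrays and 353 to 451 (median 381) on the 7 native arrays, a difference of -0.49 (SE 0.09, adjusted p = 0.0215). Pm20d1, a secreted enzyme that joins fatty acids to amino acids, read 36.0 to 55.7 on the 4 IL-2 arrays and 60.8 to 75.3 (median 73.2) on the 7 native arrays, a difference of -0.48 (SE 0.08, adjusted p = 0.0199).

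The other named falls were of adhesion, matrix, germ cell and chromatin genes. Amigo2, a neuronal adhesion molecule, read 31.8 to 48.1 on the 4 IL-2 arrays and 50.1 to 69.1 (median 64.4) on the 7 native arrays (-0.54, adjusted p = 0.0174 by limma). Emilin2, a glycoprotein of the extracellular matrix, read 177 to 198 on the 4 IL-2 arrays and 229.8 to 298 (median 268) on the 7 native arrays, a log2 difference of -0.50 (SE 0.07, adjusted p = 0.00613). Spata9, known from the testis, read 32.0 to 46.9 on the 4 IL-2 arrays and 59.4 to 70.4 (median 65.0) on the 7 native arrays, -0.54 (SE 0.07, adjusted p = 0.00613). On the IL-2 arrays Amigo2 and Spata9 thus lay around the median probe set of 39.8, which is the filter level, and on the native arrays above it. Both genes met the filter by the native arrays, the side where they were higher. Emilin2 lay well above 39.8 on both sides. Mphosph8, a reader of repressive histone methylation in the HUSH silencing complex, read 609 and 598 on IL-2 induced Treg 1 and 2, 661 and 623 on IL-2 induced Foxp3delta 1 and 2, and 757 to 815 (median 782) on the 7 native arrays, a difference of -0.32 (SE 0.04, adjusted p = 0.00222).

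On the native Foxp3delta arrays 18 of the 26 named genes read short of the IL-2 range on both arrays, among them Ccdc136 at 159 and 135, Metrnl at 139 and 166, and Ssh2 at 240.03 and 257. Chdh (92.8 on native Foxp3delta 1) and Rab21 (937 on native Foxp3delta 2) came close to their highest IL-2 arrays at 92.2 and 933. Of all genes without overlap with the 7 native arrays, the same held for 229 of 478 tested and 93 of 166 called. Both arrays lay within the native range for 6 of the 26. For the other 8 named genes at least 1 of the 2 arrays reached the IL-2 range. Both did for Tmem205 (861 and 699), Phf20l1 (250.1 and 279.5), Doc2a (159.5 and 116) and Osgepl1 (291 and 247), and 1 did for Tmem176a, Dnajc12, Amigo2 and Plch2. With these 2 arrays on the native side 19 of the 26 named genes kept their call and all 26 their direction. The number of the 188 called genes that kept theirs is given above. The 7 that lost it were Tmem205 (0.52, adjusted p = 0.0792 by limma), Tmem176a, Dctn6 (0.53, 0.0973), Phf20l1 (0.26, 0.448), Osgepl1 (-0.37, 0.191), Plch2 (-0.32, 0.093) and Doc2a (-0.32), which had the largest adjusted p of the 7.

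13 of the 26 named genes kept their call whichever single array was left out: Ccdc136, Metrnl, Tmem176a, Dnajc12, Ssh2 and Ndufb1 among the higher, and Rilpl1, Ptpn14, Chdh, Spata9, Emilin2, Gprasp1 and Mphosph8 among the lower. The other 13 lost it without at least 1 of IL-2 induced Treg 1 (10 genes), IL-2 induced Treg 2 (10) and IL-2 induced Foxp3delta 2 (11), and no named gene lost it without a native array or without IL-2 induced Foxp3delta 1. Lysmd2 lost it without either IL-2 induced Treg array, and Amigo2 without IL-2 induced Treg 1 alone. Tmem205, Kcnip2 and Doc2a lost it without IL-2 induced Treg 2 or Foxp3delta 2, and Drc3 and Osgepl1 without IL-2 induced Treg 1 or Foxp3delta 2. Dctn6, Phf20l1, Rab21, Rasal1, Pm20d1 and Plch2 lost it without any 1 of those 3.

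Few other probe sets of the called genes differed by as much as the one used. Of the 188 called genes, 76 had another probe set above the filter, and in 25 of these every other probe set differed in the same direction. Among 133 other probe sets of called genes 68 had the same sign as the one used (51.1%), against 50.2% of 8620 over all tested genes, and for 17 the difference was at least 0.5 times that of the one used. Among the named genes 10 had another probe set above the filter and 4 had all of them on the same side. Rilpl1 differed by -0.78 on the probe set used, which can cross-hybridise by its x_at class, while a probe set of like brightness differed by 0.10. Ssh2 differed by 0.53 and, on its other probe set, by -0.01. The other Mphosph8 probe sets differed by 0.02 each, that of Dctn6 by 0.00211, and that of Kcnip2 by -0.14. Phf20l1 had 4 others, at 0.32, -0.04, -0.05 and -0.30. That of Rab21 was lower too, by -0.16. Pm20d1 differed by -0.48 on the probe set used, also of the x_at class, and by -0.05 on its other one. Osgepl1 differed by -0.49 on the probe set used and by -0.07 and 0.09 on the others above the filter. When the probe sets of a gene were averaged, the count of calls was 137, including 87 of the 188, and 8 of the 26 named genes lost their call. Ccdc136, Chdh, Dnajc12, Doc2a, Emilin2, Ndufb1, Rasal1 and Tmem205 had 1 named probe set each, so no further one could be read.

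**Figure D3:**
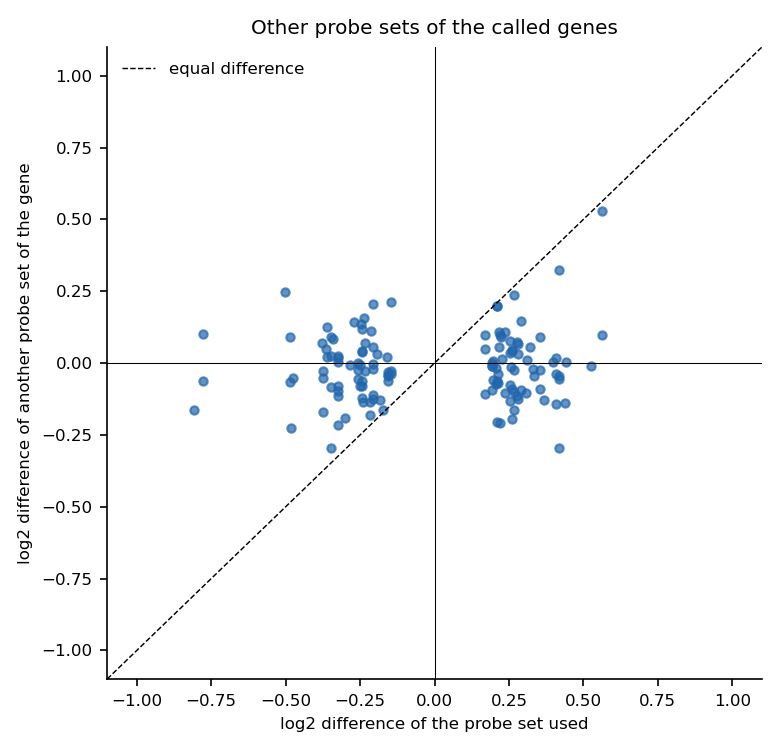
Each point is 1 of 133 further probe sets of the called genes, with the log2 difference (IL-2 culture minus native) of the probe set used across and its own upwards. 68 points share the sign of the probe set used, and few approach the dashed line of equal difference.

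The IL-2 labels were also tested singly against the mean of the natural Treg and conventional T labels, which hold the same 7 native arrays. IL-2 induced Treg differed from native at 166 genes (1.43% of those tested), 85 higher (0.731%) and 81 lower (0.697%), and IL-2 induced Foxp3delta at 1 gene (0.0086%), Gprasp1 (log2 difference -0.39, adjusted p = 0.039 by limma). For IL-2 induced Treg the split was 24 higher and 4362 lower with values as deposited, where the median log2 difference over all tested genes was -0.19, and 31 higher and 21 lower with arrays scaled to a common median. All 188 called genes had the same sign in both labels, which the pooled test favours, since it selects genes that differ over the 4 arrays. The direct test of IL-2 induced Treg against IL-2 induced Foxp3delta called 0 genes by limma, with 775 at an unadjusted p under 0.05 and a smallest adjusted p of 0.467. For Rab21 that difference was -0.60 (95% interval -0.93 to -0.28), for Ptpn14 -0.40 (-0.70 to -0.10) and for Lysmd2 0.39 (0.09 to 0.68), none past the adjusted threshold. For Ccdc136 it was 0.09 (-0.37 to 0.55) and for Chdh -0.01 (-0.25 to 0.23). The 166 calls became 9 without IL-2 induced Treg 1, 0 without IL-2 induced Treg 2 and 41 to 90 without 1 native array. Gprasp1 for IL-2 induced Foxp3delta lost its call without either IL-2 induced Foxp3delta array or without any 1 of 6 of the 7 native arrays (the exception was natural Treg 3, without which 3 genes were called). The direct test called 1 gene without IL-2 induced Foxp3delta 2.

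Chrna4 and Hspa1b were further named genes of the IL-2 induced Treg label. Chrna4, a subunit of nicotinic acetylcholine receptors, read 180.2 and 150 on IL-2 induced Treg 1 and 2, 80.8 to 103 on the native arrays, and 94.7 and 100.3 on the IL-2 induced Foxp3delta arrays. The IL-2 induced Foxp3delta arrays lay within the native range, and the log2 difference of IL-2 induced Treg from native was 0.78 (SE 0.09, adjusted p = 0.0078 by limma). Hspa1b, an inducible heat shock protein, read 114 and 94.7 on IL-2 induced Treg 1 and 2, 136 to 288 on the native arrays and 208 and 178 on the IL-2 induced Foxp3delta arrays. Its difference was -1.06 (SE 0.22, adjusted p = 0.0479 by limma), and natural Treg 1 was the native array closest to the IL-2 induced Treg arrays.

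The native labels were compared with each other in the same way. Natural Treg against conventional T gave 0 called genes by limma, 713 genes at an unadjusted p under 0.05 (6.13%) and a smallest adjusted p of 0.0771, and 0 of the 26 named genes were called in it.

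Genes of the labelled biology were examined from lists of T cell and Treg function. The counts in this and the following lists stand beside 1.62% of genes called and 19% at an unadjusted p under 0.05 over all genes tested, so that 0 calls in a list of this length is near the background. Of the IL-2 and STAT5 list 12 genes were bright enough to test and 0 passed by limma (2 at an unadjusted p under 0.05), 7 above and 5 below 0, with a median difference of 0.01 against -0.00103 over all tested genes. Cish, an early STAT5 target that dampens the receptor, read 55.7 to 63.2 on the IL-2 arrays and 55.7 to 75.2 on the native arrays (log2 difference -0.13, adjusted p = 0.289). Bcl2, a survival gene, read 345 to 352 and 309 to 361 (0.06, adjusted p = 0.472). Mcl1, a survival gene of the same family, had the smallest p of the list, with 967 to 1001 on the 4 IL-2 arrays and 991 to 1153 (median 1084) on the 7 native arrays (-0.14, adjusted p = 0.114 by limma). Pim1 and Socs2 differed by -0.02 and 0.01. The Treg list had 6 tested genes and 0 called by limma (3 at an unadjusted p under 0.05), 4 above and 2 below 0, with a median of 0.07, and Ikzf2, the Helios transcription factor, read 66.99 to 104 and 57.5 to 109 (0.15, adjusted p = 0.656). The T cell identity list had 3 tested genes of 14 measured and the list of activation and effector genes 3 of 17, with 0 called in either by limma and 0 and 1 at an unadjusted p under 0.05. The TGF-beta response list had 13 tested genes, 0 called by limma (1 at an unadjusted p under 0.05), 4 above and 9 below 0, and a median of -0.02.

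Over all 42 lists, 40 had tested members, and 473 different genes were tested. 1 was called higher and 1 lower by limma, 0.423% of them, against 1.62% over all genes. At an unadjusted p under 0.05 there were 84 (17.8%, against 19% over all genes). Hnrnpa2b1, an RNA-binding protein of splicing and transport, read 2259.9 and 2241 on IL-2 induced Treg 1 and 2, 2084 and 2269 on IL-2 induced Foxp3delta 1 and 2, and 1856 to 2029 (median 1894) on the 7 native arrays, and the sides did not overlap (0.21, adjusted p = 0.0236 by limma). 2 of its 3 other probe sets differed by 0.20 each and the third by -0.21. Psmb1, a core subunit of the proteasome, read 3000.5 and 3130.2 on IL-2 induced Treg 1 and 2, 3439.7 and 3114 on IL-2 induced Foxp3delta 1 and 2, and 3479 to 3829 (median 3649) on the 7 native arrays (-0.21, adjusted p = 0.0423 by limma). List medians ran from -0.13 (monoamine genes, 5 tested) to 0.07 (Treg genes).

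Since the arrays carried nervous tissue genes, lists of its cell types were described as well. Against the same 1.62% and 19% over all genes, 0 genes of these lists were called by limma. Central myelin had 15 tested genes (1 at an unadjusted p under 0.05) with 5 above and 10 below 0 and a median of -0.07, and the oligodendrocyte lineage 13 (2 unadjusted) with 4 above and 9 below and a median of -0.11. The myelin gene with the smallest p was Cldn11, a tight junction protein of myelin, at 1455 to 1792 on the 4 IL-2 arrays and 1551 to 2438 (median 1999.8) on the 7 native arrays (-0.32, adjusted p = 0.135 by limma). Of 16 astrocyte genes 3 had an unadjusted p under 0.05, 7 lay above and 9 below 0, and the median was -0.01. Slc4a4, a bicarbonate transporter, had the smallest p at 1847 to 2121 on the 4 IL-2 arrays and 2274 to 2889 (median 2415) on the 7 native arrays (-0.30, adjusted p = 0.0514 by limma), the sides not overlapping. Atp1b2, a sodium pump subunit, and Aldoc, a glycolytic aldolase, differed the other way, by 0.38 (adjusted p = 0.271 by limma) and 0.26 (0.246). Microglia had 14 tested genes (3 unadjusted), 8 above and 6 below 0, and a median of 0.01. Activated phagocytes had 10 (3 unadjusted), 2 above and 8 below 0, and a median of -0.09. Axl, a receptor of phagocytes and 1 of the 2 above 0, read 341 to 377 on the 4 IL-2 arrays and 311 to 341 (median 323) on the 7 native arrays (0.16, adjusted p = 0.0617 by limma). Ctss, a lysosomal protease, was among the 8 below, at 1596 to 2157 on the IL-2 arrays and 2158 to 2414 on the native arrays (-0.27, adjusted p = 0.0741 by limma). Atp1b2, Aldoc and Ctss were named after their values were seen.

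Neuronal lists had no called gene by limma either, against 1.62% over all genes. The neurofilament and axon list had 14 tested genes, 8 above and 6 below 0, a median of 0.04 and 3 at an unadjusted p under 0.05. Sptbn4, the spectrin of the axon initial segment, had the largest difference of any tested list gene and a wide native spread, at 317 to 506 on the 4 IL-2 arrays and 387 to 949 (median 689) on the 7 native arrays (-0.77, adjusted p = 0.0766 by limma). Nefh, the heavy neurofilament chain, named after its values were seen, differed the other way, by 0.30 (adjusted p = 0.102 by limma). Synaptic release genes numbered 17, 8 above and 9 below 0, with a median of -0.04 and 5 at an unadjusted p under 0.05, where 19% of all genes were. Of 15 voltage-gated channel genes 8 lay above and 7 below 0 (2 unadjusted), and of 14 neuropeptide genes 6 above and 8 below (3 unadjusted). Kcnq3, a potassium channel subunit, read 1122 to 1417 on the 4 IL-2 arrays and 963 to 1140.1 (median 1054) on the 7 native arrays (0.25, adjusted p = 0.0783 by limma). Npy, a neuropeptide, read 216 to 274 on the 4 IL-2 arrays and 277 to 403 (median 296) on the 7 native arrays (-0.32, adjusted p = 0.0938 by limma). Of 22 tested Hox genes 13 lay above and 9 below 0, with a median of 0.01 and 4 at an unadjusted p under 0.05.

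Lists of stress, early response and daily rhythm were likewise without a called gene by limma, against 1.62% over all genes. The heat shock and chaperone list had 14 tested genes, 9 above and 5 below 0, a median of 0.03 and 4 at an unadjusted p under 0.05. Hspb1, a small heat shock protein, read 1999.8 to 2447 on the 4 IL-2 arrays and 1417 to 2148 (median 1592) on the 7 native arrays (0.38, adjusted p = 0.0746 by limma). Hspa1b had the largest difference of the list, at 94.7 to 208 on the IL-2 arrays and 136 to 288 on the native arrays (-0.64, adjusted p = 0.134 by limma), and Hspa1a, its near-identical neighbour, differed by -0.28 (adjusted p = 0.0818 by limma), both given for their values. The circadian list had 17 tested genes, 6 above and 11 below 0, a median of -0.03 and 2 at an unadjusted p under 0.05. Nr1d1, a repressor of the circadian clock, read 101 to 144 on the 4 IL-2 arrays and 55.2 to 121 (median 71.9) on the 7 native arrays (0.51, adjusted p = 0.118 by limma), with its sides overlapping. Of 16 immediate early genes 7 lay above and 9 below 0 (median -0.01, 5 at an unadjusted p under 0.05). Nr4a1 read 129 to 143 on the 4 IL-2 arrays and 107 to 132 (median 119.6) on the 7 native arrays (0.20, adjusted p = 0.0763 by limma). Junb read 30.4 to 39.1 on the 4 IL-2 arrays and 38.0 to 43.4 (median 40.5) on the 7 native arrays. All its IL-2 values lay below the filter level of 39.8. Junb thus entered the test through the native arrays, and no difference is given for it. The list of MHC and antigen processing had 11 tested genes, 5 above and 6 below 0 (median -0.03, 2 unadjusted). H2-Aa, an MHC class II chain, read 94.7 to 131 on the 4 IL-2 arrays and 115 to 164 (median 144) on the 7 native arrays (-0.35, adjusted p = 0.0714 by limma).

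Housekeeping programmes had medians near 0. The median was 0.01 for 20 tested genes of oxidative phosphorylation, -0.00292 for 14 cytosolic ribosomal proteins, -0.02 for 14 glycolytic genes and 0.01 for 15 genes of cholesterol synthesis. At an unadjusted p under 0.05 by limma there were 3, 0, 5 and 2 of these, against 19% over all genes. The glycolytic genes lay 7 above and 7 below 0, from -0.15 (Tpi1) to 0.26 (Aldoc). The RNA processing list, which holds Hnrnpa2b1, had a median of 0.02 over 17 genes, and the proteasome list, which holds Psmb1, one of -0.02 over 12. Interferon response genes had 2 of 10 above 0 and a median of -0.05.

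**Figure D4:**
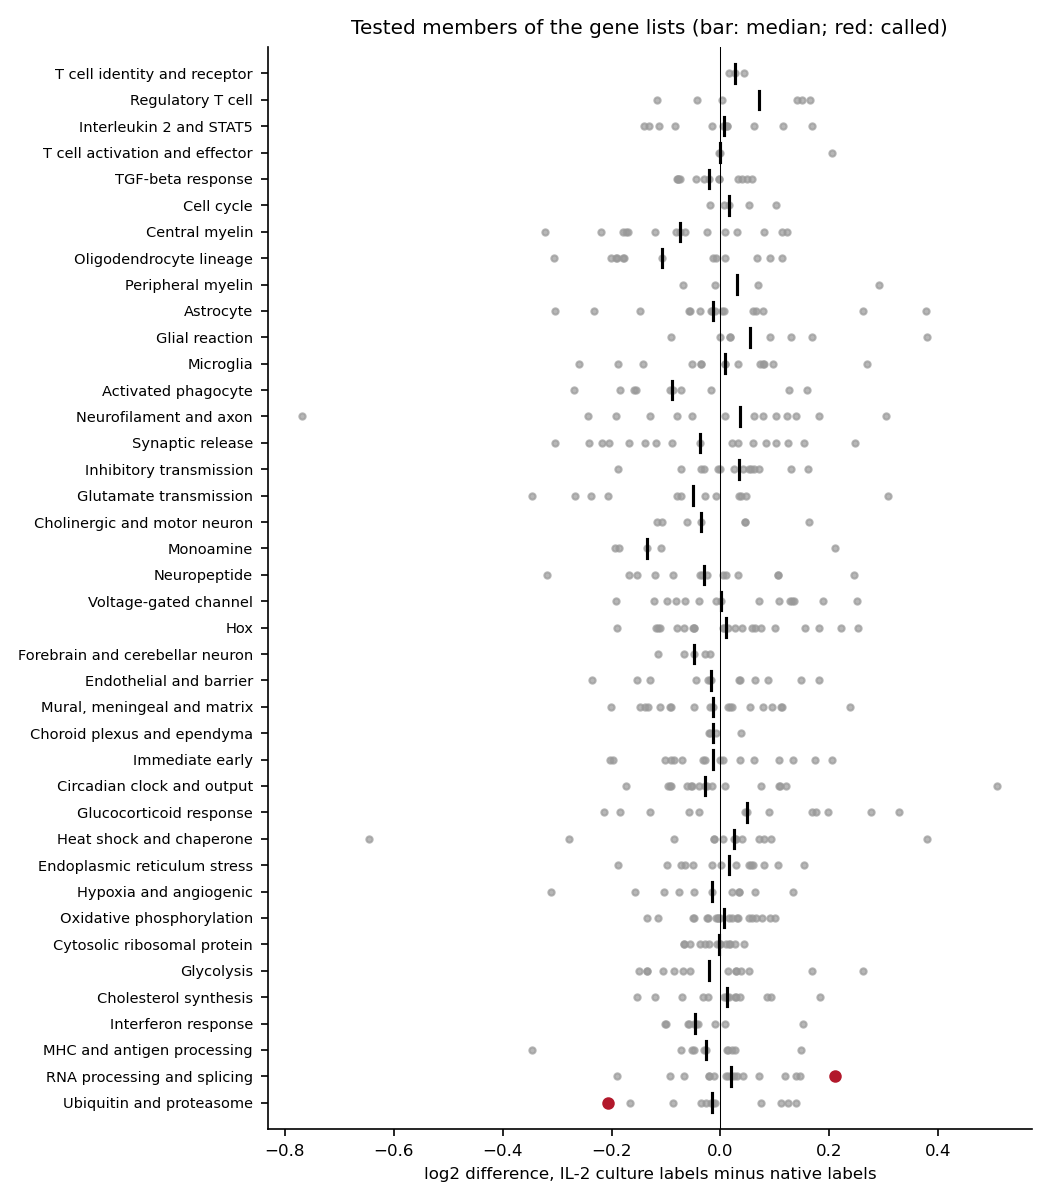
Log2 difference (IL-2 culture minus native) of every tested member of 40 gene lists, 1 row a list. Grey points are genes, black bars the list medians, and the 2 red points are the called members Hnrnpa2b1 and Psmb1. Medians lie between -0.13 and 0.07.

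The named genes were then read on the 20 other arrays of the series, which carry labels of induced, failed induced, activated and native Foxp3delta cells. For 3 of 26, Ccdc136, Chdh and Mphosph8, the 4 IL-2 arrays lay beyond all 27 other arrays. The same held for 56 of all tested genes (0.482%), which is 11.7% of the 478 genes without overlap with the 7 native arrays, beside 11.5% of the 26 named genes, which were chosen from those. The share of the named genes is thus near that background. Ccdc136 read 128 to 241 (median 191) on the 20 other arrays, below the lowest IL-2 array at 345. Chdh read 92.4 to 164, its lowest value close to the highest IL-2 array at 92.2, and Mphosph8 784 to 1097, above the highest IL-2 array at 661. For other named genes many of the 20 arrays lay with the IL-2 arrays. On the higher side, 17 of the 20 other arrays reached the lowest IL-2 value of Phf20l1, 16 that of Tmem205 and 15 that of Ndufb1. Among the lower genes, 15 were at or below the highest IL-2 value of Doc2a, 14 that of Osgepl1 and 13 that of Amigo2. Metrnl was reached by 2 and Rilpl1 by 1.

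**Figure D5:**
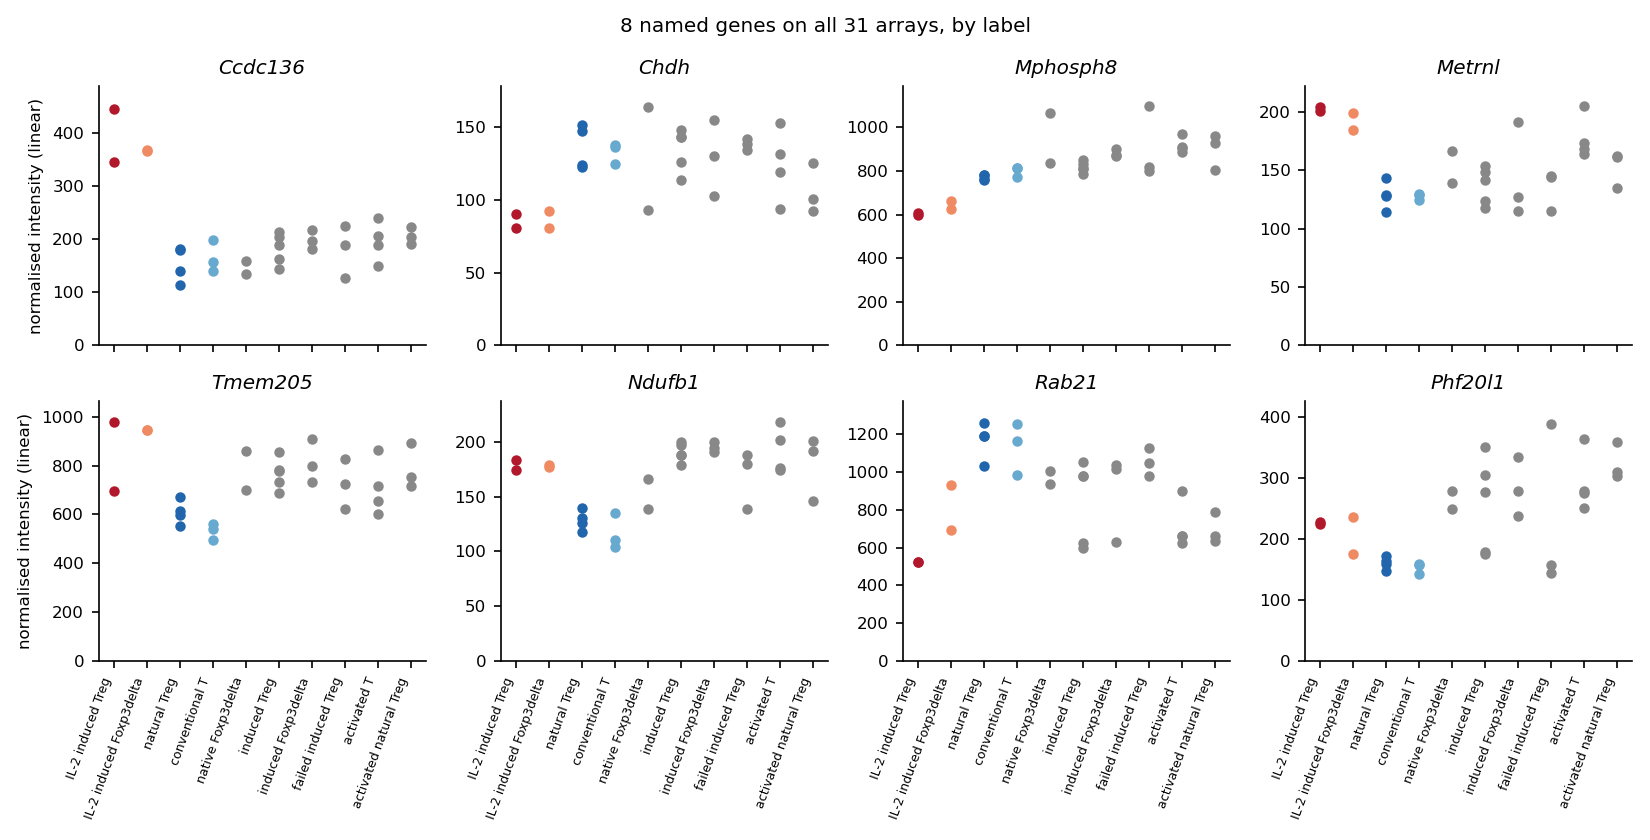
Normalised intensity (linear, from 0) of 8 named genes on all 31 arrays, with the 10 label groups across and 1 point per array (red and orange for IL-2 labels, blue for the 7 native arrays, grey for the others). In the panels of Ccdc136, Chdh and Mphosph8 the IL-2 points lie beyond all others, while in those of Ndufb1 and Phf20l1 grey points reach or pass them.

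The IL-2 arrays were last set against the 8 arrays labelled induced Treg (5) and induced Foxp3delta (3), which lack the week in IL-2. Of 11693 genes tested 1420 were called (12.1%), 682 higher (5.83%) and 738 lower (6.31%) by limma. With values as deposited it was 8 higher and 1867 lower, and with arrays scaled to a common median 311 higher and 3144 lower. The median log2 difference over all tested genes was -0.25 and -0.13 under these scalings. The log2 cre over bioB ratio was 5.30 to 5.44 on the IL-2 arrays and 5.46 to 6.17 on the 8 induced arrays, which do not overlap, whereas the native arrays spanned 5.30 to 5.54. With this ratio as a covariate 1225 genes were called. The count was 606, 629 and 387 without IL-2 induced Treg 1, IL-2 induced Treg 2 and IL-2 induced Foxp3delta 2. This comparison shares its IL-2 arrays with the one against native labels.

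Ccdc136 read 144 to 218 (median 193) on the 8 induced arrays, and its difference from the IL-2 arrays was 0.94 (SE 0.14, adjusted p = 0.000285 by limma), against 1.19 from the native arrays. Mettl7a1, a lipid droplet protein measured here by an x_at probe set with near-identical relatives in the family, read 856 to 994 on the IL-2 arrays, 322 to 550 on the induced arrays and 603 to 882 on the native arrays, and it rose against the induced arrays by 1.02 (SE 0.13). Cmpk2, a mitochondrial nucleotide kinase, read 192 to 243, 92.1 to 137 and 206 to 264 in the same order, with a difference of 0.80 (SE 0.15). For both genes the IL-2 arrays lay above the induced arrays. For Cmpk2 they overlapped the native range. For Mettl7a1 all but IL-2 induced Foxp3delta 2 (856) lay above every native array. Lrrc4b, a synaptic adhesion protein, read 210 to 231, 306 to 504 and 195 to 318 (-0.84, SE 0.11), and Pcdh9, a protocadherin, 1222 to 1618, 1881 to 3395 and 1560.1 to 2549 (-0.82, SE 0.14). Uroc1, an enzyme of histidine breakdown, read 11.97 to 17.5 on the IL-2 arrays and 18.4 to 83.5 on the induced arrays. None of the 4 IL-2 arrays and 5 of the 8 induced arrays exceeded the filter level of 39.8, so the gene entered the test through the induced arrays and no difference is given for it. Its IL-2 and native values (13.2 to 18.8) lay close to the bacterial controls.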

How the data were processed

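The table that the authors deposited holds linear probe set intensities, to judge from its values, for 31 arrays in 10 label groups. Probe summary and array scaling are not given in the sources used here. Of 45101 probe sets 34958 carried 1 gene symbol in the platform annotation, 932 several and 9211 none that was listed. Those with several were left unnamed. Each gene was read from its brightest probe set by the mean of the 31 arrays. Arrays were quantile normalised over the 31 and taken as log2(intensity + 16), so fold changes of dim genes are understated. Genes above the median probe set (39.8) on at least 4 of the 11 arrays were tested. The comparison with the induced labels required at least 4 of the IL-2 and induced arrays instead. Tests were by lmFit and eBayes of limma 3.58.1 (R 4.3.3), with Benjamini-Hochberg adjustment over all tested genes and calls at an adjusted p under 0.05. The main fit held 1 mean per side over the 11 arrays. Comparisons of single labels used a fit of 4 label means over these arrays. The comparison with the induced labels used 10 label means over all 31 arrays. In both of these fits, labels joined on a side had equal weight and all arrays of the fit gave the spread. Intervals are at 95%. Single values and technical measures were tested by exact two-sided permutation of the 11 arrays.

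Named were called genes without overlap between the sides, 12 per direction by difference and 4 by smallest p in the main comparison and 3 per direction in the others. Unnamed gene models were left out. In the lists, the called genes or else the gene of smallest p were named, and other list genes by their known role or, where said, after their values were seen. The members and lists were chosen with earlier results of these data known. In a test on simulated data for the comparison of IL-2 culture with native labels (11625 genes, 20 draws), 49.8% of genes changed by 0.25, 90% of those changed by 0.5 and 99.3% of those changed by 1 on the log2 scale were called, and 6.31% of calls were false. The draws used the spread within labels and independent noise for each gene and array, without any shift shared by the genes of an array. The 6.31% is thus no estimate for the calls made on the real arrays. The alternatives tried were other scalings, constants, filters and probe set rules, a covariate, other fits and each array left out. The number of arrays limits the precision.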

Additional observations from a re-analysis of the deposited data

Results flagged for a closer look

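4 of 108 groups of 4 to 10 arrays held an array far from the others by Dixon's criterion, and chance flags about 1 group in 20. For genes the gap and range were taken on the log2(intensity + 16) scale, while the array values given are linear. For Tmem205 on the IL-2 culture arrays the gap was 0.897 of the range, with IL-2 induced Treg 1 lowest at 696 and the next array at 945. For Phf20l1 on the IL-2 culture arrays it was 0.844, with IL-2 induced Foxp3delta 1 lowest at 176 and the next at 226. For Dnajc12 on the natural Treg arrays it was 0.958, with natural Treg 2 highest at 479 and the next at 439.8. For Rilpl1 on the native arrays it was 0.572, with natural Treg 3 lowest at 317 and the next at 389.8.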

How the results depend on the processing

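All 26 named genes kept their direction in the 665 values computed under other settings and leave-outs. With an array left out or a single native label this was fixed in advance, since the sides overlap for none of the 26. Most other settings read the same arrays. The call was kept in 554 of these and lost in 111, of which 23 were against conventional T alone, 13 against natural Treg alone, 15 with the replicate block, 11 in the fit over 31 arrays 8 with probe sets averaged and 7 with all 9 arrays titled native. Ccdc136 and Metrnl kept the call in every alternative run for them. The count of 188 stayed within 1.5 times under quantile normalisation of the 11 arrays (186), added constants of 1 (188) and 64 (205), averaged probe sets (137), no filter (241), a stricter filter (169) and 4 group means (171). It was 1687 with values as deposited, 114 with arrays scaled to a common median, 72 with the cre to bioB ratio as a covariate, 61 in the fit over 31 arrays, 76 with all 9 arrays titled native, 29 against natural Treg alone, 4 against conventional T alone and 38 to 642 with 1 array left out. The cause was not tested, though fewer arrays enter the last ones by construction.

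The labels of the groups share replicate numbers. Over 13 same-numbered pairs the correlation of deviations ran from -0.098 to 0.087, with 0 over 0.1. These values show no pairing but cannot exclude it, since each IL-2 label has only 2 arrays. With the replicate block the main count was 13, that of IL-2 induced Treg 0 (1765 at an unadjusted p under 0.05), that of IL-2 induced Foxp3delta 0 (936) and that against the induced labels 720.

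For IL-2 induced Treg against native (166) the count by limma was 4386 as deposited, 52 with common medians, 61 with averaged probe sets, 74 with the covariate, 45 over 31 arrays, 7 against natural Treg alone, 0 against conventional T alone (1879 unadjusted) and 0 to 90 with 1 array left out. For IL-2 induced Foxp3delta (1) it was 3 as deposited, 2 with common medians, 4 with quantile normalisation of the 11 arrays, 4 with a constant of 1, 10 with 64, 0 with averaged probe sets (1141 unadjusted), 13 with a stricter filter, 0 with the covariate (907), 6 over 31 arrays, 3 with all 9 arrays titled native, 0 against natural Treg alone (1080), 0 against conventional T alone (1017) and 0 to 3 with 1 array left out. IL-2 induced Treg against IL-2 induced Foxp3delta gave 0 to 1 with 1 array left out. Natural Treg against conventional T gave 1 as deposited, 2 with common medians, 3 with averaged probe sets, 1 with no filter and 1 over 31 arrays. IL-2 culture against the induced labels (1420) gave 3455 with common medians and 387 to 1624 with 1 array left out. The setting with 9 arrays titled native was chosen after seeing the data. A lone array left in a group was assumed to vary like the other groups.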
